A study of Mus musculus with 38 samples.

Results

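The genes described here are 7 regulators of RNA in fetal germ cells: Nanos1, Nanos2, Nanos3, Dnd1, Dazl, Pum2 and Celf1. They were chosen by name, as the rows of the deposited count tables that carry these symbols, and all 7 were found among the 27633 genes of the Inhba tables. The Inha table holds 9798 genes and a row for 5 of them; Nanos2 and Nanos3 were not analysed in the Inha animals. In GRCm38 (GENCODE M21) the genes lie at chr19:60755987-60759914 (Nanos1, plus strand), chr7:18987400-18988962 (Nanos2, plus), chr8:84173731-84185217 (Nanos3, minus), chr18:36763671-36766214 (Dnd1, minus), chr17:50279395-50293636 (Dazl, minus), chr12:8674134-8752581 (Pum2, plus) and chr2:90940382-91019497 (Celf1, plus), and each value is the sum over a gene's exons. The question was how their transcripts differed in male germ cells (gonocytes) of mice that lack activin A or have too much of it. At the ages sampled the cells, already committed to a male fate, stop dividing and differentiate further.

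Cells carrying the Oct4-Gfp reporter (OG2) were taken by FACS from the testes of single embryos, so that 1 animal is 1 replicate and its GFP-positive cells, not a single cell type proven by other means, are what was sequenced. All animals carried the reporter on a mixed C57/Bl6/129svJ background, and the knockouts were global, so that the somatic cells around the gonocytes lacked the gene too. Inhba KO embryos, which cannot make the activin A subunit, numbered 4 at E15.5 and 4 at E13.5, against 4 Inhba WT embryos at E15.5 and 3 at E13.5. Inha KO embryos, in which loss of the inhibin alpha subunit raises activin A, numbered 2 at E13.5, each with an Inha WT littermate. These 19 animals have 38 sequencing records and 1 deposited count column each. For 5 of the animals the genotype field contradicts the sample title, and the title was followed. These are KO animal 1 at E13.5, whose field says WT, and all 4 WT animals at E15.5, whose fields say KO, so that by the fields no WT animal would be left at E15.5. The group sizes that the study states fit the field for the E13.5 animal and the titles at E15.5. The study also left out 1 WT gonocyte sample at E13.5 as an outlier that may have been contaminated or swapped. Whether the stated sizes count that sample is not given, so they do not settle the genotype of KO animal 1. Fold changes with KO animal 1 at E13.5 counted as WT, a grouping added after the data had been seen, are given beside the results they change. Count ratios, relations between animals, and ranges of members and markers follow the titles, except where stated.

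NANOS proteins are zinc finger proteins that bind messenger RNA together with partners such as the Pumilio protein PUM2 and bring in the CCR4-NOT complex, which shortens poly(A) tails. DND1 (dead end) binds RNA and works with NANOS2 and NANOS3, DAZL (deleted in azoospermia like) binds U-rich 3′ ends of germ cell transcripts and licenses the cells to form gametes, and CELF1 binds GU-rich elements. In the mouse, NANOS3 keeps migrating primordial germ cells alive, whereas NANOS2 is made in male germ cells after sex determination and holds them back from meiosis.

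Total counts per animal were between 8466087 and 40600907 in the Inhba animals and between 6320539 and 11917167 in the Inha animals, so that 3 counts were worth 0.0739 to 0.354 cpm (CPM, the count scaled to the library's total) and 0.252 to 0.475 cpm. The germ cell markers Ddx4 and Pou5f1 summed to 774.6 cpm or more in every E15.5 animal and to 548 cpm or more in every E13.5 Inhba animal. Inhba itself, the targeted gene, was near the floor: it averaged 0.361 ± 0.309 cpm in KO and 0.640 ± 0.159 cpm in WT animals at E15.5 (SD, n = 4 each), and 0.499 ± 0.183 cpm in KO (n = 4) and 0.120 ± 0.0757 cpm in WT animals (n = 3) at E13.5. At E13.5 the KO animals were all above the WT animals for this gene, so its level gave no check of the genotype labels. The cpm is a share of all counted reads, and the Inha table holds fewer genes, so levels are compared within a table only. Whether counting used the strand is not stated. Without strand, reads from the ends that Dnd1 shares with Wdr55 (35.8 cpm on average) or from the antisense RNA Gm45058 across Nanos2 cannot be told from the member's own, and Nanos3 spans the microRNA genes Mir181c and Mir181d.

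The 5′ flanks of 3 members are printed because Nanos2 and Nanos3 moved together across animals and both lack the dense CpG of the other matched members, shown here by Dazl. Dazl too moved with Nanos3 at E15.5 (r = 0.914), though not at E13.5 (r = -0.81), and a link of such relations to CpG was not tested. Each sequence is the 250 bases before the RefSeq transcript start (GRCm38.p6), 5′ to 3′ on the gene's strand. Capitals mark each CpG dinucleotide and the letters TATAAA on either strand.
Nanos2, chr7:18987274-18987523, plus strand: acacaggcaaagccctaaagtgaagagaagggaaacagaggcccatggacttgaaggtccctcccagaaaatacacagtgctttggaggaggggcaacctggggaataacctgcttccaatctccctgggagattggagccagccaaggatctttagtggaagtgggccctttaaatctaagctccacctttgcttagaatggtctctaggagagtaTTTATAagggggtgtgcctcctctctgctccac
Nanos3, chr8:84176553-84176802, minus strand: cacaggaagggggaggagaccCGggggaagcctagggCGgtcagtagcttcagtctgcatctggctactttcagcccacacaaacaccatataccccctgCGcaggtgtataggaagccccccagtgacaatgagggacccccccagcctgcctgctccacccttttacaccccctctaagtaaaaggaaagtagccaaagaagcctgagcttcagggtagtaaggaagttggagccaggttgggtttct
Dazl, chr17:50293621-50293870, minus strand: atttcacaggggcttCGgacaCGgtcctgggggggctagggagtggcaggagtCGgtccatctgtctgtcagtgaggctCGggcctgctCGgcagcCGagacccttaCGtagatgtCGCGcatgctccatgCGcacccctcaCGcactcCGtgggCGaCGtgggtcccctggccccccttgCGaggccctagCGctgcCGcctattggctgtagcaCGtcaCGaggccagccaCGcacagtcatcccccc
The Nanos2 flank held 0 CpG and the Nanos3 flank 3, whereas Dazl had 20, Celf1 24, Nanos1 25 and the 3 RefSeq windows of Pum2 30, 34 and 36. Among all 32851 such windows in the table the median was 6 CpG, 7.87% had none, 37.8% had at most 3 and 17.9% had at least 20. TATAAA, read on both strands, was present once in Nanos2, on the opposite strand (printed as TTTATA) and beginning 33 bases before the start, and in no other member window; 12.4% of all windows hold it. The letters CAGAC, the core that SMAD proteins downstream of activin can bind, were found once in Nanos3 and once in Dazl and not in the windows of the other matched members, against 42.2% of all windows. A CCAAT was found 2 times in Nanos2, once in Dazl and once in Nanos1 (33.8% of all windows). CANNTG was found 2 times in Nanos3, once in Dazl and once in Nanos1 (66.2% of all windows). In the Dazl window 1 pair of these matches shares bases, and in the other members' windows 0 do. A match is a description of the letters only. Windows of 6 of the 7 members were matched by symbol, all but Dnd1. Ensembl places the Nanos2 start 124 bases and the Dazl start 16 bases further upstream, and its Nanos3 model reaches 8665 bases further upstream.

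**Figure D1:**
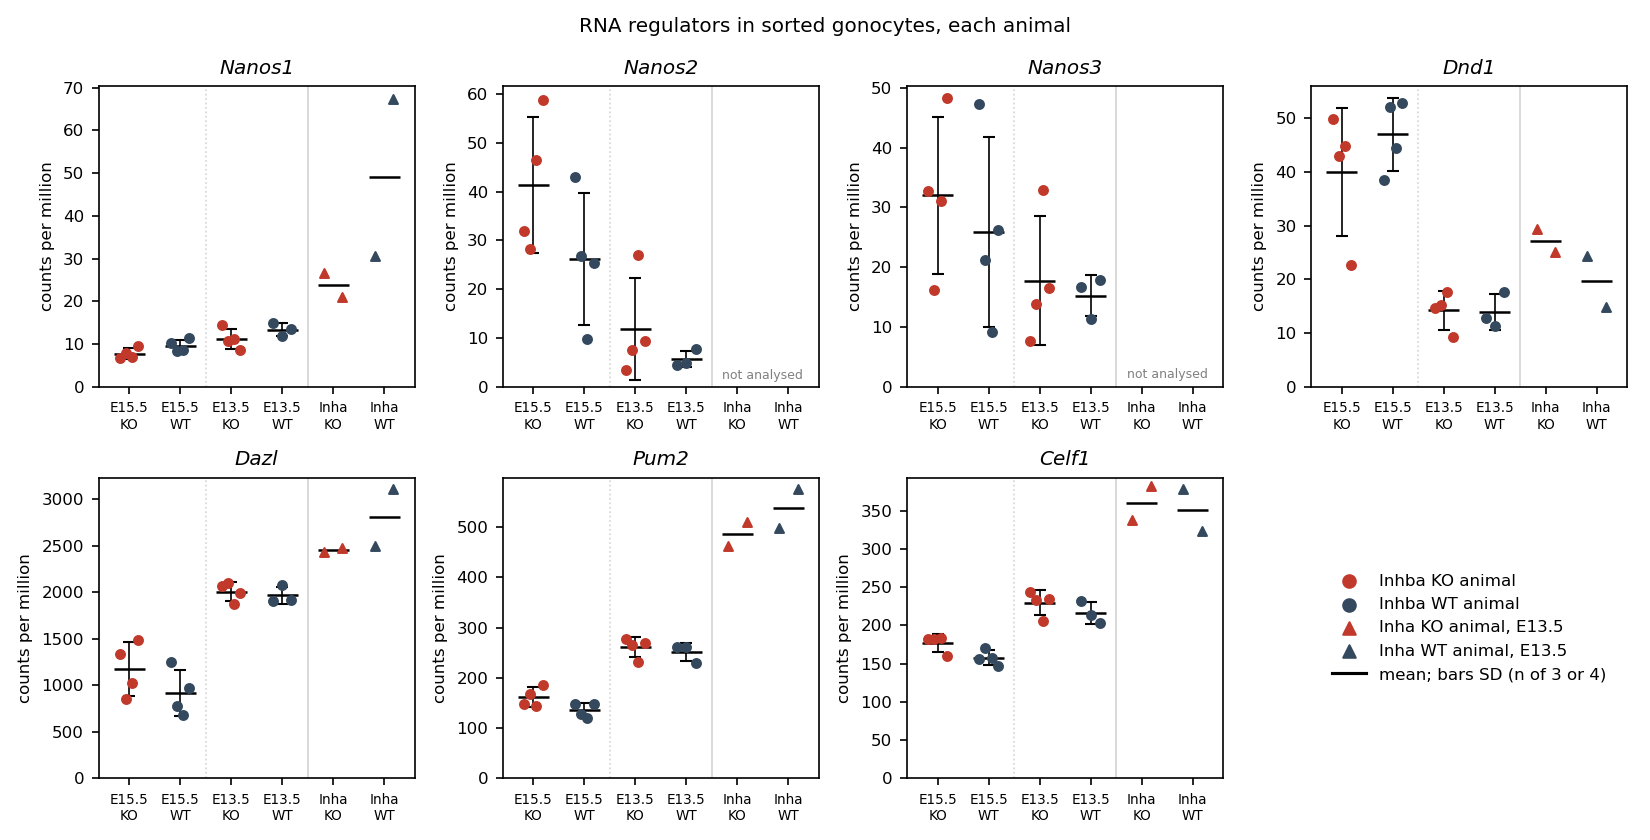
Level in cpm of the 7 members in every animal (circles, Inhba; triangles, Inha at E13.5; red, KO; dark blue, WT), with the group mean as a line and the SD as bars where n is 3 or 4. The Inhba animals at E15.5 stand above all or most of those at E13.5 for Nanos2 and Dnd1 and below them for Dazl, Pum2 and Celf1, while Inhba KO and WT animals of an age overlap for every member. Inha KO and WT animals are separate for Nanos1, Dnd1 and Dazl, 3 of 5 members, beside 33.6% of all 9798 genes tested, and none of the 3 passed.

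Most of the differences in the Inhba animals lay between the ages. Among WT animals 6 of the 7 members passed the test between E15.5 and E13.5 (edgeR's quasi-likelihood test, Benjamini-Hochberg adjusted p under 0.05 and over 1.5-fold): Nanos2 and Dnd1 were higher at E15.5, and Dazl, Pum2, Celf1 and Nanos1 were lower. Of all 15376 genes tested, 62.1% passed, 34.1% higher and 28% lower, so 2 of 7 higher and 4 of 7 lower are to be read against a transcriptome that changed widely. In KO animals 5 of 7 passed, against 54.8% of 14653 genes: 2 were higher (28.1% of genes) and 3 lower (26.7% of genes). The median log2 fold change over the 7 members was -0.52 in KO and -0.67 in WT animals, beside -0.02 and 0.05 over all genes tested. E15.5 and E13.5 animals had separate cpm ranges for 5 of 7 members in KO (57.3% of genes) and for 6 of 7 in WT (70.9% of genes). In such bulk samples, fewer cells of a type and less RNA per cell cannot be told apart.

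Nanos2 was the member with the largest difference between the ages. Its level was 32.0, 28.3, 46.4 and 58.8 cpm in E15.5 KO animals, against 3.38, 7.48, 27.1 and 9.48 cpm in E13.5 KO animals. In WT animals it was 42.9, 26.9, 9.87 and 25.3 cpm at E15.5 and 4.55, 4.86 and 7.68 cpm at E13.5. Every E15.5 animal was above every E13.5 animal of its genotype, though KO animal 3 at E13.5 came close to the lowest E15.5 KO animal and WT animal 3 at E15.5 was far below its group. The log2 fold change was 1.72 ± 0.496 (SE) in KO (adjusted p = 0.00613 by edgeR) and 1.99 ± 0.566 in WT (adjusted p = 0.00493 by edgeR), or 3.29-fold and 3.98-fold.

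Nanos3, the paralog of earlier germ cells, had a wide spread at both ages and did not pass. It stood at 32.7, 16.2, 31.0 and 48.2 cpm in E15.5 KO animals, against 7.64, 13.8, 32.9 and 16.5 cpm in E13.5 KO animals. In WT animals the values were 47.3, 21.1, 9.12 and 26.2 cpm at E15.5 and 16.6, 11.3 and 17.9 cpm at E13.5. The ages overlapped in both genotypes, and in each group the animal with the highest Nanos3 was also the one with the highest Nanos2. The log2 fold change was 0.75 ± 0.454 in KO (adjusted p = 0.154 by edgeR) and 0.56 ± 0.493 in WT (adjusted p = 0.322 by edgeR). Without KO animal 3 at E13.5, Nanos3 passed in the KO animals, at a log2 fold change of 1.17 (adjusted p = 0.0396 by edgeR). Without KO animal 4 at E15.5 the KO value was 0.45, and without WT animal 1 at E15.5 the WT value was 0.074, neither of which passed.

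Because both genes were read in the same library, their counts were also compared as a ratio, a measure chosen after the values had been seen. The Nanos2 to Nanos3 count ratio was 0.978, 1.75, 1.5 and 1.22 in E15.5 KO animals, against 0.442, 0.542, 0.823 and 0.575 in E13.5 KO animals. In WT animals it was 0.908, 1.27, 1.08 and 0.966 at E15.5 and 0.274, 0.430 and 0.429 at E13.5. Nanos3 thus had more reads than Nanos2 in all 7 animals at E13.5 and in 3 of 8 at E15.5, with no overlap between the ages in either genotype. The difference between ages was 1.2 on the log2 scale in KO (exact two-sided permutation test, p = 0.0286) and 1.5 in WT (exact p = 0.0571), in both cases the smallest p the numbers of animals allow. At E13.5 the KO animals, averaging 0.596 ± 0.162 (SD, n = 4), were all above the WT animals, averaging 0.378 ± 0.0901 (SD, n = 3), by 0.65 on the log2 scale (exact two-sided permutation test, p = 0.0571, the smallest possible with 4 against 3). At E15.5 they averaged 1.36 ± 0.333 in KO and 1.06 ± 0.161 in WT animals and overlapped (n = 4 each, exact p = 0.171). After adjustment over these 4 comparisons the p was 0.0762 for the first 3 and 0.171 for the last.

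Dnd1, the partner of NANOS2 and NANOS3, was the other member that passed as higher at the later age. It was 49.7, 42.9, 44.9 and 22.7 cpm in E15.5 KO animals, against 14.7, 15.3, 17.7 and 9.22 cpm in E13.5 KO animals. In WT animals it was 38.5, 52.1, 44.5 and 52.8 cpm at E15.5 and 12.7, 11.3 and 17.7 cpm at E13.5. The ages did not overlap in either genotype, and KO animal 4 at E15.5 was the lowest of the 8 later animals. Dnd1 changed by 1.36 ± 0.224 on the log2 scale in KO (adjusted p = 6.63e-05 by edgeR) and by 1.53 ± 0.247 in WT (adjusted p = 4.68e-05 by edgeR).

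Dazl was by far the most abundant of the members and was lower at E15.5. Its level was 1334, 855, 1024 and 1485 cpm in E15.5 KO animals, against 2066, 2102, 1869 and 1987 cpm in E13.5 KO animals. WT animals had 1249, 780, 685 and 969 cpm at E15.5 and 1911, 2076 and 1918 cpm at E13.5. The spread was narrow at E13.5 and wide at E15.5, where the SD was 287 cpm in KO and 249 cpm in WT animals, against 103 and 93.0 cpm at E13.5. Dazl had a log2 fold change of -0.91 ± 0.191 in KO (adjusted p = 0.000572 by edgeR) and -1.31 ± 0.203 in WT (adjusted p = 3.15e-05 by edgeR).

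Pum2, which encodes a Pumilio partner of NANOS, was also lower at E15.5. Its level was 147, 168, 144 and 187 cpm in E15.5 KO animals, against 278, 266, 233 and 270 cpm in E13.5 KO animals. In WT animals it was 147, 129, 119 and 148 cpm at E15.5 and 262, 262 and 230 cpm at E13.5. No E15.5 animal reached the lowest E13.5 animal. On the log2 scale this was -0.84 ± 0.123 in KO (adjusted p = 2.2e-05 by edgeR) and -1.10 ± 0.131 in WT (adjusted p = 2.42e-06 by edgeR).

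Celf1 was lower at E15.5 by a smaller margin. It had 183, 182, 184 and 160 cpm in E15.5 KO animals, against 244, 234, 206 and 235 cpm in E13.5 KO animals. WT animals had 157, 171, 157 and 148 cpm at E15.5 and 232, 213 and 204 cpm at E13.5. The ages were separate in both genotypes. In WT animals the log2 fold change of -0.67 ± 0.104 passed (adjusted p = 3.11e-05 by edgeR), and in KO animals -0.52 ± 0.0971 was past the p threshold but short of 1.5-fold (adjusted p = 0.000211 by edgeR). It passed the fold threshold in KO without KO animal 3 at E13.5, at -0.60.

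Nanos1, the family member known mainly from the brain, was lower at E15.5. It had 6.85, 7.98, 6.86 and 9.46 cpm in E15.5 KO animals, against 14.4, 10.7, 11.3 and 8.72 cpm in E13.5 KO animals. In WT animals it had 10.2, 8.29, 8.70 and 11.4 cpm at E15.5 and 14.9, 11.8 and 13.4 cpm at E13.5. The ages overlapped in the KO animals and not in the WT animals. The log2 fold change was -0.66 ± 0.186 in KO (adjusted p = 0.00511 by edgeR) and -0.69 ± 0.197 in WT (adjusted p = 0.00496 by edgeR). Without KO animal 1 at E13.5 the KO value was -0.51 and no longer past 1.5-fold, and with that animal counted as WT, as its genotype field says, it was -0.51 as well and 4 members passed in KO.

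Other measures moved with age in the same libraries. The median gene had 1.83 to 2.59 cpm in KO and 2.20 to 3.46 cpm in WT animals at E15.5, against 1.22 to 1.61 cpm in KO and 1.21 to 1.22 cpm in WT animals at E13.5, so that more genes were counted above the limit. Markers of interstitial mesenchyme (9 of 9 with a row) summed to 19.4 to 67.2 cpm in KO and 44.0 to 70.0 cpm in WT animals at E15.5, against 15.4 to 29.7 cpm in KO and 3.05 to 12.2 cpm in WT animals at E13.5. Those of endothelium (6 of 6) summed to 19.1 to 46.7 cpm in KO and 29.7 to 66.0 cpm in WT animals at E15.5, against 6.08 to 8.42 cpm in KO and 5.31 to 10.7 cpm in WT animals at E13.5. Macrophage markers (7 of 7) gave 1.55 to 5.29 cpm in KO and 4.97 to 12.9 cpm in WT animals at E15.5, against 1.45 to 3.21 cpm in KO and 0.606 to 1.37 cpm in WT animals at E13.5. The sum over Leydig cell markers (5 of 5) was 5.71 to 22.6 cpm in KO and 7.93 to 14.2 cpm in WT animals at E15.5, against 8.06 to 11.8 cpm in KO and 2.59 to 5.21 cpm in WT animals at E13.5. Erythroid markers (8 of 8) gave 4.03 to 11.3 cpm in KO and 7.29 to 8.73 cpm in WT animals at E15.5, against 7.03 to 12.6 cpm in KO and 3.17 to 4.1 cpm in WT animals at E13.5. In WT animals the E15.5 sums of these 5 lists thus lay above the E13.5 sums without overlap, whereas in KO animals those of endothelium alone did. For Leydig cell markers in WT this holds by title only: KO animal 1 at E13.5, WT by its field, had 9.69 cpm. The germ cell sum was higher at E15.5 too, at 873.9 to 997.8 cpm in KO and 774.6 to 998.9 cpm in WT animals, against 548 to 802.5 cpm in KO and 610.9 to 696.3 cpm in WT animals at E13.5. Sertoli cell markers (10 of 10) overlapped between the ages in both genotypes. They summed to 7.54 to 25.1 cpm in KO and 17.7 to 40.8 cpm in WT animals at E15.5. At E13.5 they summed to 12.9 to 87.4 cpm in KO and 9.7 to 30.1 cpm in WT animals. The part of these measures in the members' differences was not tested. Scaling by total counts alone would have put the median of all genes at 0.11 in KO and 0.27 in WT on the log2 scale, which is larger than under the scaling used, and smaller than the change of each member that passed.

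**Figure D2:**
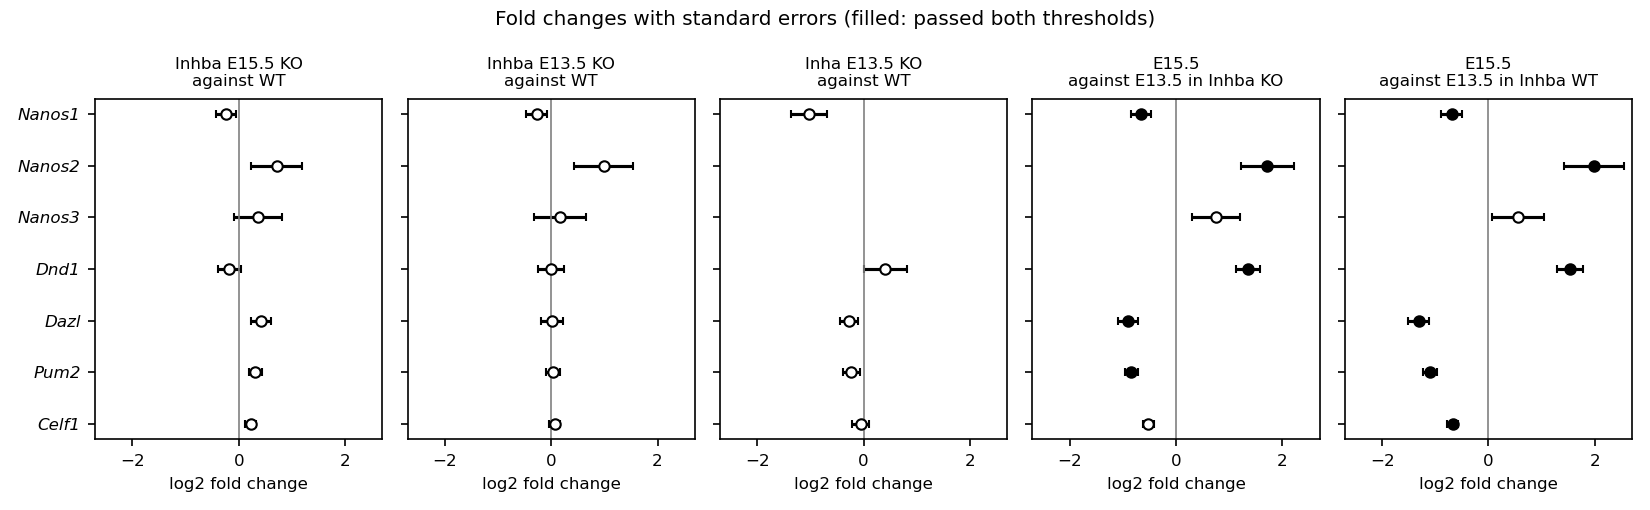
Log2 fold change of each member with its standard error in 5 comparisons; filled points passed both thresholds and open points did not. No point is filled between KO and WT animals, whereas Nanos2 and Dnd1 lie to the right and Nanos1, Dazl and Pum2 to the left in both comparisons of E15.5 with E13.5.

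Per kilobase of exon, which allows genes to be ranked, Dazl was first in every Inhba group and did not overlap with the next gene: it averaged 307 and 241 cpm per kb in KO and WT animals at E15.5, and 525 and 515 at E13.5. At E15.5 Nanos3 came next, at 34.7 cpm per kb in KO and 28.1 in WT animals, and overlapped with its neighbour in the order, Nanos2 at 26.5 in KO and Dnd1 at 19.5 in WT animals. Pum2, Celf1, Nanos2, Nanos3 and Dnd1 formed a run of neighbours at E15.5 that overlapped from animal to animal, between 16.6 and 34.7 cpm per kb in KO means and between 16.8 and 28.1 in WT means. At E13.5 the order was more open: Pum2 followed Dazl, at 36.0 cpm per kb in KO and 34.6 in WT animals, then Celf1 at 27.2 in KO and 25.6 in WT, then Nanos3 at 19.2 in KO, where it overlapped with Celf1, and 16.5 in WT, where it did not. Nanos2 and Dnd1 overlapped at E13.5, with 7.59 and 5.90 cpm per kb in KO animals, and with 3.64 and 5.76 in WT animals. Nanos1 was last in each Inhba group, at 1.98 in KO and 2.45 in WT animals at E15.5 and 2.87 in KO and 3.4 in WT animals at E13.5. Only in WT animals at E13.5 did it overlap with its neighbour, Nanos2. In the Inha animals Dazl, Pum2 and Celf1 followed each other without overlap, and the last places were Dnd1 at 11.2 and Nanos1 at 6.05 cpm per kb in KO animals, and Nanos1 at 12.5 and Dnd1 at 8.13 in WT animals, where those overlapped.

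**Figure D3:**
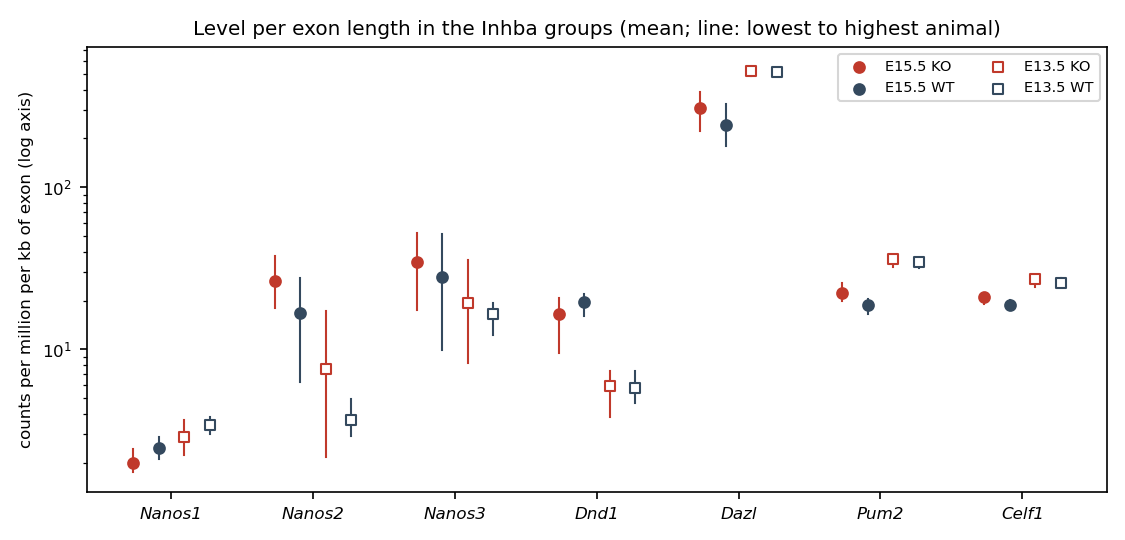
Mean level of each member per kilobase of merged exon length on a log axis in the 4 Inhba groups, with a line between the lowest and the highest animal. Dazl stands apart at the top in all groups, and Nanos2 and Dnd1 are higher in the filled symbols (E15.5) than in the open ones (E13.5).

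Loss of activin A was not accompanied by a difference in any member that passed. At E15.5, 0 of 7 passed between Inhba KO and WT animals by edgeR, by DESeq2 and by limma-voom; over all genes 0.00658% of 15201 passed, which is 1 gene, the noncoding RNA 9430041J12Rik, named after its value was seen. At an unadjusted p under 0.05 there were 3 members, all higher in KO animals, beside 10.6% of genes. These were Dazl (log2 fold change 0.42 ± 0.189, adjusted p = 0.469 by edgeR), Pum2 (0.31 ± 0.122, adjusted p = 0.459 by edgeR) and Celf1 (0.22 ± 0.097, adjusted p = 0.466 by edgeR). Their means were 1174 cpm in KO and 921 cpm in WT animals for Dazl, 161 and 136 cpm for Pum2, and 177 and 158 cpm for Celf1. Nanos2 had the largest log2 fold change, 0.71 ± 0.479, and also the largest standard error (adjusted p = 0.546 by edgeR). Nanos3 stood at 0.36 ± 0.448, Dnd1 at -0.18 ± 0.217 and Nanos1 at -0.24 ± 0.186. Single animals moved several of these values: Nanos2 was 1.07 without WT animal 1 and 0.44 without WT animal 3, Nanos3 0.84 without WT animal 1 and 0.058 without KO animal 4, and Dazl 0.61 without WT animal 1 and 0.26 without KO animal 4. KO and WT animals overlapped in all 7 members, so 0 of 7 were separate, against 3.85% of genes. At this age the somatic markers ran lower in KO for Sertoli cells, at 7.54 to 25.1 cpm in KO and 17.7 to 40.8 cpm in WT animals, and for macrophages, at 1.55 to 5.29 cpm in KO and 4.97 to 12.9 cpm in WT, with ranges that overlapped, while those of Leydig cells (5.71 to 22.6 cpm in KO and 7.93 to 14.2 cpm in WT) and erythroid cells (4.03 to 11.3 cpm in KO and 7.29 to 8.73 cpm in WT, with Hba-a1 at 0 in WT) lay across each other. Interstitial mesenchyme (medians of 40.1 cpm in KO and 51.1 cpm in WT) and endothelium (40.3 and 47.4 cpm) ran lower in KO too, with ranges that overlapped. What part these markers had in the members' values was not tested.

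At E13.5, 0 of 7 members passed by edgeR, DESeq2 or limma-voom and 0 of 7 had an unadjusted p under 0.05; over all genes 0% of 12730 passed by edgeR, with 238 at an unadjusted p under 0.05. Dazl averaged 2006 ± 103 cpm in KO (n = 4) and 1968 ± 93.0 cpm in WT animals (n = 3), a log2 fold change of 0.0091 ± 0.204 with a 95% interval of -0.39 to 0.41. Pum2, Celf1 and Dnd1 differed by 0.04 ± 0.132, 0.07 ± 0.105 and -0.0028 ± 0.241 on the log2 scale, and Nanos3 by 0.16 ± 0.493. Their 95% intervals ran from -0.22 to 0.3 for Pum2, from -0.14 to 0.28 for Celf1 and from -0.48 to 0.47 for Dnd1. Nanos1 differed by -0.27 ± 0.198. Nanos2 had the largest value, 0.99 ± 0.555, which rested on KO animal 3: without that animal it was 0.28. With KO animal 1 counted as WT, Nanos2 stood at 1.45 ± 0.466 (adjusted p = 0.998 by edgeR), Nanos3 at 0.60 and Nanos1 at -0.45, while Dazl, Pum2 and Celf1 turned to -0.033, -0.036 and -0.016, and again 0 of 7 passed. The count at an unadjusted p under 0.05 and the fit without KO animal 3 were made with the grouping by title only. The 0 of 7 at that p therefore does not cover the grouping by field, where Nanos2 had a larger value and a smaller standard error. The KO and WT animals overlapped in all 7 members, against 4.03% of genes that were separate. With KO animal 1 counted as WT, Nanos1 alone would be separate, at 8.72 to 11.3 cpm in KO and 11.8 to 14.9 cpm in WT animals. The share of all genes was not computed for that grouping. At this age the KO libraries held more of several somatic markers. The sum over markers of interstitial mesenchyme was 15.4 to 29.7 cpm in KO and 3.05 to 12.2 cpm in WT animals, that over Leydig cell markers (5 of 5) 8.06 to 11.8 cpm in KO and 2.59 to 5.21 cpm in WT, with Insl3 at 0 in WT, and that over erythroid markers (8 of 8) 7.03 to 12.6 cpm in KO and 3.17 to 4.1 cpm in WT, with Hba-a1, Hba-a2, Hbb-bt and Hba-x at 0 in WT. Macrophage markers (7 of 7) gave 1.45 to 3.21 cpm in KO, with C1qa at 0, and 0.606 to 1.37 cpm in WT, with C1qa and Adgre1 at 0. Sertoli cell markers (10 of 10) overlapped, at 12.9 to 87.4 cpm in KO and 9.7 to 30.1 cpm in WT. KO animal 1 had 9.69 cpm for Leydig cell and 3.21 cpm for macrophage markers. With this animal counted as WT, the ranges of both lists would overlap. The part of these in the members' values was not tested.

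The effect of genotype was not shown to depend on age for any member. In the test of that interaction 0 of 7 passed by edgeR, DESeq2 and limma-voom and 0 of 7 had an unadjusted p under 0.05, over 15830 genes of which 0% passed and 966 had an unadjusted p under 0.05. The largest value was that of Dazl, 0.41 ± 0.278 (E15.5 minus E13.5 difference between KO and WT, log2; adjusted p = 0.781 by edgeR). Pum2 stood at 0.27 ± 0.18, Nanos3 at 0.20 ± 0.665, Celf1 at 0.15 ± 0.142, Nanos1 at 0.03 ± 0.272 and Dnd1 at -0.18 ± 0.324. For Nanos2 the value was -0.28 ± 0.724 with a 95% interval of -1.70 to 1.14, so that differences of over 2-fold in either direction lie within it.

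Raised activin A was examined in the Inha littermates, in which 0 of 5 members passed with the pair in the model (edgeR; 0 also by DESeq2 and limma-voom), against 0.357% of 9798 genes. Nanos1 came closest and was the 1 of 5 members with an unadjusted p under 0.05, beside 9.32% of the 9798 genes. It had 26.5 and 21.0 cpm in KO, against 30.7 and 67.4 cpm in the WT littermate of each. Nanos1 was lower in the KO animal of both pairs, by little in pair 1 and by a wide margin in pair 2. The log2 fold change was -1.03 ± 0.341 (adjusted p = 0.201 by edgeR), and without WT animal 2 it was -0.42, in a fit that had to leave out the pair as well. Dnd1 had 29.3 and 25 cpm in KO and 24.4 and 14.8 cpm in WT animals, higher in the KO animal of both pairs (0.41 ± 0.399, adjusted p = 0.827 by edgeR). Dazl had 2438 and 2479 cpm in KO and 2499 and 3112 cpm in WT animals (-0.27 ± 0.169, adjusted p = 0.638 by edgeR). Pum2 had 463 and 511 cpm in KO and 499 and 576 cpm in WT animals, and Celf1 had 338 and 382 cpm in KO and 378 and 323 cpm in WT animals. The groups were separate for 3 of 5 members, Nanos1, Dnd1 and Dazl, beside 33.6% of all genes tested in these 4 animals. The germ cell markers summed to 682 and 388 cpm in KO and 611 and 446 cpm in WT animals, Sertoli cell markers (5 of 10 with a row) to 40.8 and 65.5 cpm in KO and 37 and 53.8 cpm in WT, and the Leydig cell list (1 of 5) to 8.64 and 10.9 cpm in KO and 10.4 and 15.3 cpm in WT. The other somatic lists were not analysed in the Inha animals, and the part of these markers in the members' values was not tested.

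Between animals of the same age, some members varied together. All 21 pairs of members were compared at each age, on log2(cpm + 1), which gives 42 relations with exact permutation tests over the animals and Benjamini-Hochberg adjustment. The points are libraries, so both values of a point share that library's depth and composition. Nanos2 and Nanos3 had r = 0.912 at E15.5 over 8 animals (exact p = 0.00238, adjusted 0.025; Spearman's rho = 0.833, exact p = 0.0154, adjusted 0.129) and r = 0.901 at E13.5 over 7 animals (exact p = 0.00774, adjusted 0.0625; rho = 0.714, exact p = 0.0881, adjusted 0.37). Without the 2 animals farthest from the median of Nanos2, r was 0.694 and 0.421, so the relation rests in good part on those animals. Taken as deviations from the genotype means, r was 0.936 at E15.5 and 0.959 at E13.5.

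Nanos3 and Dazl were related in opposite directions at the ages. At E15.5 r was 0.914 over 8 animals (exact p = 0.00134, adjusted 0.0187; rho = 0.952, exact p = 0.00114, adjusted 0.016) and remained 0.893 without the 2 animals farthest from the median. At E13.5 r was -0.81 over 7 animals (exact p = 0.0123, adjusted 0.0738; rho = -0.821, exact p = 0.0341, adjusted 0.239) and -0.84 without the 2 farthest. Around the genotype means the values were 0.925 and -0.841. The difference between the ages was not tested. Of the animals at E15.5, KO animal 4 had the highest Nanos3 and Dazl, 48.2 and 1485 cpm, with the lowest median gene level, 1.83 cpm, while WT animal 3 had the lowest Nanos3 and Dazl, 9.12 and 685 cpm, with the highest median gene level, 3.46 cpm. The part of this in the relation was not tested.

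Pum2 and Celf1 were in the same order in all 7 animals at E13.5 (r = 0.914, exact p = 0.000198, adjusted 0.00729; rho = 1, exact p = 0.000397, adjusted 0.016), with r = 0.774 without the 2 animals farthest from the median and 0.916 around the genotype means. Nanos1 and Celf1 ran against each other at E15.5 over 8 animals (r = -0.933, exact p = 0.000347, adjusted 0.00729; rho = -0.952, exact p = 0.00114, adjusted 0.016). That r was -0.874 without the 2 farthest animals and -0.887 around the genotype means. These 2 and the 2 relations of Nanos3 at E15.5 were the 4 of 42 with an adjusted p under 0.05 for r.

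**Figure D4:**
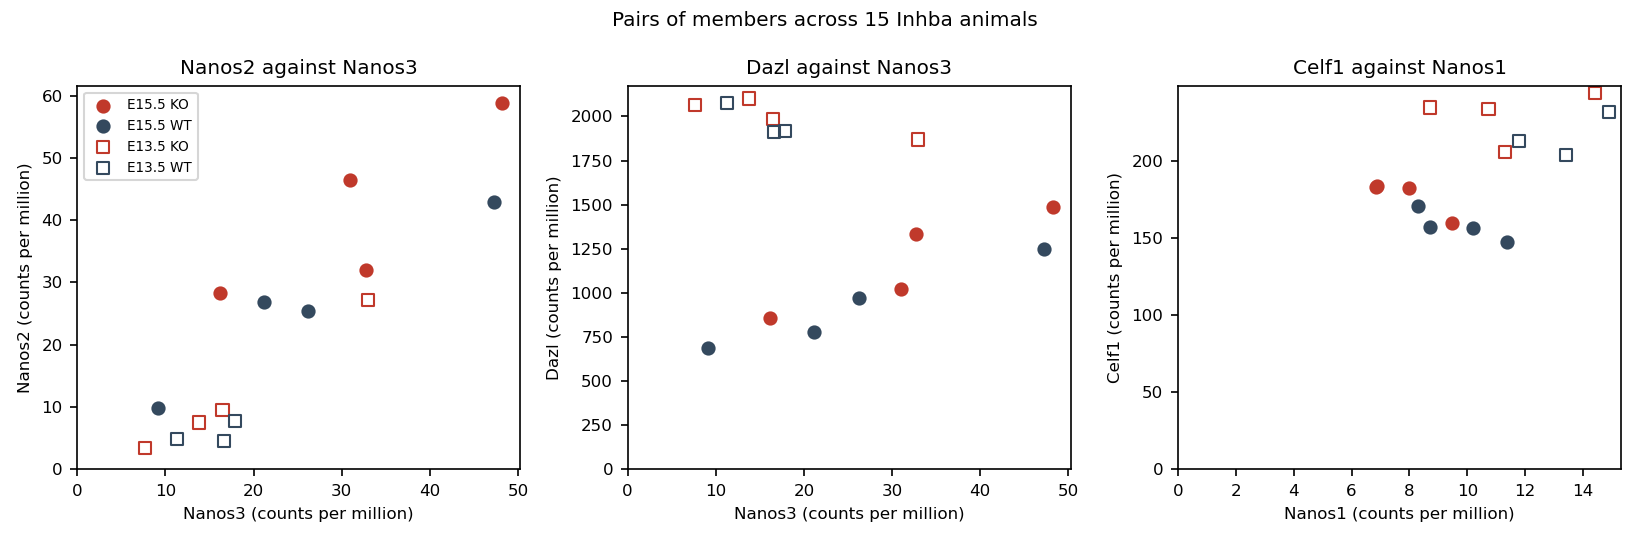
Level in cpm of Nanos2 and of Dazl against Nanos3 and of Celf1 against Nanos1 in 15 Inhba animals (filled circles, E15.5; open squares, E13.5; red, KO; dark blue, WT). Nanos2 climbs with Nanos3 at both ages, Dazl climbs with Nanos3 at E15.5 and declines with it at E13.5, and Celf1 declines with Nanos1 at E15.5.

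For each member the 3 genes with the most similar pattern were sought among 8630 protein-coding genes with a mean of at least 10 cpm, by Pearson's r of log2(cpm + 1) over the 15 Inhba animals. This r includes the difference between the ages, which many genes share, so r within E15.5 and within E13.5 is given for the nearest gene. For Nanos2 they were Fmn1 (a formin; r = 0.977, with 0.926 and 0.951 within the ages), Atp9b (0.974) and Pla2g7 (0.969). Among those of Nanos3 were Sdhc (a subunit of succinate dehydrogenase; r = 0.947, with 0.954 and 0.943 within the ages) and Dapk2 (0.936). Nanos2 ranked 33 among the 8629 other genes by likeness to Nanos3, and Nanos3 ranked 327 by likeness to Nanos2. The nearest to Dnd1 were Mars (methionyl-tRNA synthetase; r = 0.988, with 0.907 and 0.968 within the ages), Ddx41 (0.982) and Zkscan6 (0.982). Dazl was followed by Rpl22 (a ribosomal protein; r = 0.991, with 0.968 and 0.612 within the ages), Vbp1 (0.989) and Ube2g1 (0.988). Those of Pum2 were Tnpo3 (a nuclear import receptor; r = 0.987, with 0.927 and 0.764 within the ages), Arcn1 (0.987) and Smarcad1 (0.987). Celf1 was followed by Mcm3 (a subunit of the replicative helicase; r = 0.966, with 0.794 and 0.874 within the ages), D17Wsu92e (0.961) and Clta (0.956). Nanos1 had the loosest neighbours, Slc25a40 (a mitochondrial carrier; r = 0.899, with 0.868 and 0.782 within the ages), Patl1 (0.891) and Atp5sl (0.886).

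The CCR4-NOT complex that NANOS proteins bring in held no subunit that passed as higher at E15.5. Decapping and P-body genes passed in both directions. Counts in these and the other lists are to be read against the 28.1% of all genes that were higher and the 26.7% that were lower at E15.5 in KO animals, and the 34.1% higher and 28% lower in WT animals. Of the 11 CCR4-NOT subunits 0 were higher and 2 lower at E15.5 in KO animals, and 0 were higher and 3 lower in WT animals. Cnot1, the scaffold, averaged 620 ± 93.3 cpm in KO and 511 ± 68.3 cpm in WT animals at E15.5, against 1216 ± 55.4 cpm in KO and 1193 ± 37.9 cpm in WT animals at E13.5. Its log2 fold change was -1.11 ± 0.129 in KO and -1.44 ± 0.137 in WT. Cnot7, a catalytic deadenylase, stood at -0.60 in KO and -1.03 in WT, and Rqcd1 passed in WT at -0.64. The list's median was 0.03 in KO and -0.12 in WT, against -0.02 and 0.05 over all genes. Of 12 decapping and P-body genes, 2 were higher and 2 lower in KO, and 2 were higher and 3 lower in WT, with a median of 0.02 and -0.23. Lsm14a fell (-1.11 in KO and -1.57 in WT), as did Eif4enif1 (-0.70 and -0.96) and, in WT, Dcp2, the decapping enzyme (-0.73). Edc4 and Edc3, enhancers of decapping, rose: Edc4 by 0.98 in KO and 0.88 in WT, and Edc3 by 0.77 in KO and 0.73 in WT.

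Most relatives of Dazl and Celf1 were higher at E15.5. Of 6 tested (Boll and the other Celf genes) 6 were higher at E15.5 in KO and 5 in WT animals and 0 were lower, beside 28.1% and 34.1% of all genes that were higher, with a median log2 fold change of 2.27 in KO and 2.60 in WT. Celf5 and Celf6 averaged under 1 cpm at E13.5 and entered these tests through the E15.5 animals only. A higher level at E15.5 was thus fixed in advance for both, and the counts and medians include them. Celf2 averaged 135 ± 42.8 cpm in KO and 139 ± 30.1 cpm in WT animals at E15.5, against 16.9 ± 4.39 cpm in KO and 16.9 ± 2.14 cpm in WT animals at E13.5, a log2 fold change of 2.86 ± 0.222 and 2.81 ± 0.247. Celf3 stood at 2.38 in KO and 3.01 in WT, Celf6 at 3.16 and 3.71 from levels of under 1 cpm at E13.5, and Boll, the close relative of Dazl, at 1.12 and 0.99. Boll averaged 18.8 ± 2.7 cpm in KO and 19.7 ± 1.69 cpm in WT animals at E15.5, against 7.84 ± 1.13 cpm in KO and 8.52 ± 1.57 cpm in WT animals at E13.5.

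Among 16 other germ cell RNA-binding genes tested, 0 were higher and 5 lower at E15.5 in KO, and 0 were higher and 8 lower in WT animals, beside 26.7% and 28% of all genes that were lower, with a median of -0.38 in KO and -0.51 in WT. The log2 fold change of Khdrbs1 (Sam68) was -1.57 in KO and -1.86 in WT, and that of Elavl2 -1.41 and -1.84. Cpeb1, which controls poly(A) tail length in the cytoplasm, stood at -1.27 in KO and -1.74 in WT. Pabpc4, a poly(A)-binding protein gene, stood at -1.25 in KO and -1.06 in WT, and Dazap1 passed in WT at -0.8. In the Inha littermates 1 of 16 passed: Rbm46 averaged 90.05 ± 8.76 cpm in KO and 146 ± 28.3 cpm in WT animals (n = 2 each), a log2 fold change of -0.77 ± 0.19 (adjusted p = 0.0204 by edgeR).

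Genes of meiosis, the programme that NANOS2 holds back in male germ cells, included some that were higher and some that were lower. Of 18 tested 7 were higher and 2 lower at E15.5 in KO, and 7 were higher and 3 lower in WT animals, beside 28.1% and 34.1% of all genes that were higher, with a median of 0.19 in KO and 0.48 in WT. Mei1 (0.158 cpm in KO and 0.19 cpm in WT at E13.5) and, in WT, Stra8 (1.23 cpm) entered through the E15.5 animals only. They are counted as higher, which was fixed in advance. Sycp3, an axial element of the synaptonemal complex, averaged 91.2 ± 19.7 cpm in KO and 78.6 ± 18 cpm in WT animals at E15.5, against 26.1 ± 9.22 cpm in KO and 23.1 ± 3.92 cpm in WT animals at E13.5, a log2 fold change of 1.68 ± 0.221 and 1.54 ± 0.243. Sycp2 stood at 1.95 in KO and 1.59 in WT. Syce2, of the central element, was lower at -2.10 in KO and -2.25 in WT, and Smc1b, a meiotic cohesin, at -1.08 in KO and -1.42 in WT. Between Inhba KO and WT animals none of the genes of the 5 lists passed by edgeR at either age, nor did any of the 5 in the interaction.

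**Figure D5:**
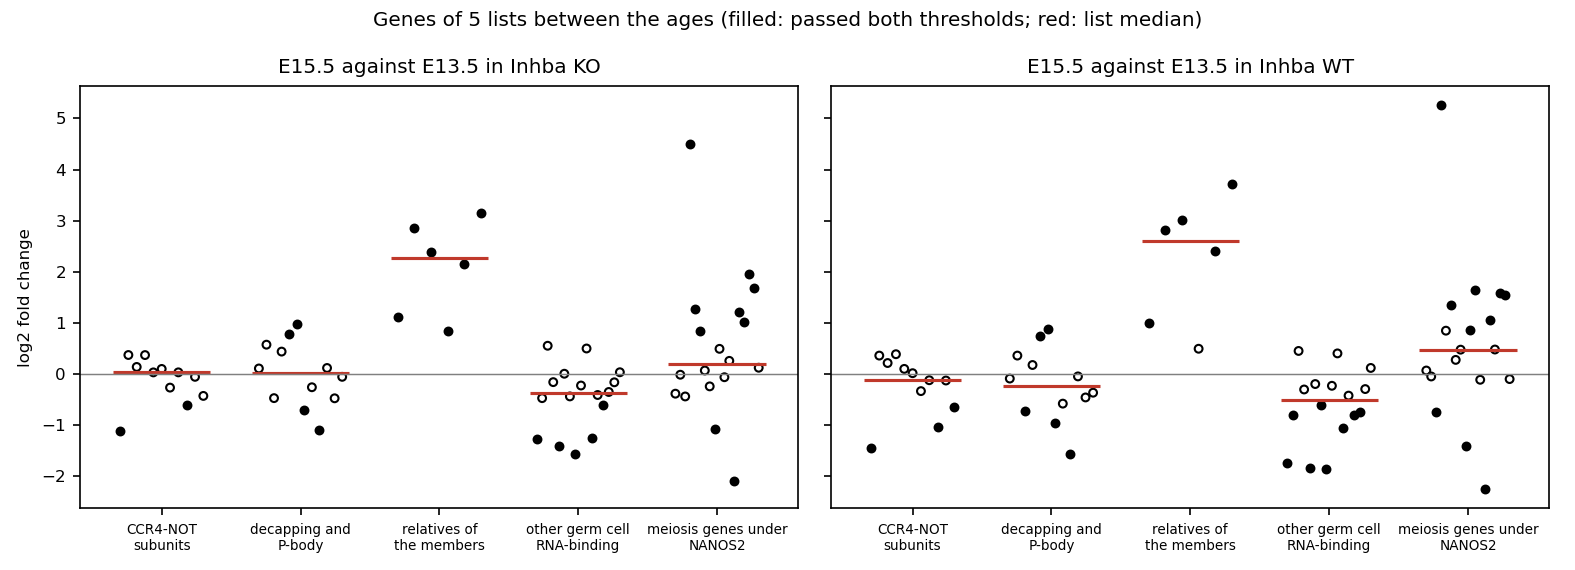
Log2 fold change of each gene of the 5 lists in the comparison of E15.5 with E13.5 in KO (left) and WT animals (right); filled points passed both thresholds and red lines are list medians. The relatives of Dazl and Celf1 sit high, with medians of 2.27 and 2.60, and the other germ cell RNA-binding genes low, at -0.38 and -0.51. Celf5 and Celf6, among the relatives, entered through the E15.5 animals only.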

How the data were processed

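RNA of FACS-sorted Oct4-Gfp gonocytes was amplified as full-length cDNA (SPIA) and sequenced single-end. The authors aligned reads with STAR 2.5.2b to GRCm38 (Ensembl 84) and deposited raw featureCounts (Subread 1.5.2) counts per gene; strand use is not given in the sources used here, nor is how 2 records per animal became 1 column. From the Inha counts the authors left out mitochondrial genes and those that did not reach 2 cpm in 2 animals. Animals with 2 records count once, and the labels state no litters or dates beyond the Inha pairs, so p-values measure the spread between these animals. Among the E15.5 Inhba animals, 1052.2 and 1052.4 (both KO) share the first part of their numbers, as do 855.1 (KO) and 855.2 (WT). The numbers of the Inha littermates share it too. The Inhba fit took all its animals as independent, and a shared litter was not modelled.

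Counts were fitted with edgeR 4.0.16 in R 4.3.3 (TMM scaling, robust quasi-likelihood test). All 15 Inhba animals shared 1 fit of 4 group means, and a gene entered a comparison if 2 or more of its animals exceeded 2.4 cpm. The Inha table had a fit of its own that included the littermate pair as a block. The pairing comes from the labels, and the departures of littermates from their groups correlated at r = 0.257 over 9798 genes. A gene passed at a Benjamini-Hochberg adjusted p under 0.05 over all genes tested and over 1.5-fold. The standard error of a log2 fold change is its size divided by the root of the F statistic. Scripts were tested on simulated data. Alternatives were DESeq2 1.42.0, limma-voom 3.58.1, median-of-ratios scaling, no filter, fits of the compared animals alone, no fold threshold, no pair, leaving out each animal and, added after seeing the data, 1 E13.5 animal grouped by its genotype field. Single values used exact permutation tests (scipy 1.17.1). Exon lengths are merged exons of GENCODE M21. Floors cover counting error only, and 95% intervals of log2 fold changes are normal intervals from the standard error.

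Members and gene lists were chosen with earlier results of these data known. The text names all members, up to 4 genes per list and comparison with the smallest p among those that passed, the 3 most similar genes per member and Inhba. Celf5, Mei1 and Stra8 are named for how they entered the tests. A gene of 1 list and a similar gene of 1 member are not reported here, and the list was counted without that gene.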

Additional observations from a re-analysis of the deposited data

Results flagged for a closer look

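Celf1 in KO animal 4 at E15.5 stood apart from its group: it had 160 cpm, whereas the other 3 KO animals lay between 182 and 184 cpm. Of 21 groups of 4 animals tested in this way, over 7 members, this was the 1 in which an animal's gap to its neighbour was over the 95% critical value, and chance alone gives about 1 in 20. The same animal had the lowest Dnd1 and the highest Dazl, Nanos2 and Nanos3 of the E15.5 KO group.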

How the results depend on the processing

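The number of members that passed between KO and WT animals stayed at 0 in the Inhba animals at both ages, in the interaction and in the Inha littermates under every alternative run. Between the ages it was 6 in WT under every alternative with all animals, and in KO it was 5, or 6 with no filter or no fold threshold, and 4 to 7 when each animal was left out in turn. Celf1 in KO was -0.60 with no filter. With KO animal 1 at E13.5 counted as WT by its genotype field, a grouping chosen after seeing the data, 6 members passed in WT and 4 in KO, where Nanos1 was lost; by the fields no WT animal is left at E15.5, so KO against WT at that age could not be fitted. Without the littermate pair as a block, 0 of 5 members and 0 genes passed in the Inha animals, against 35 genes with it. Over all genes, DESeq2 called 6, 25, 11 and 12 genes between KO and WT at E13.5, at E15.5, in the interaction and in Inha, where edgeR called 0, 1, 0 and 35, and a fit of the compared animals alone called 2 at E13.5. With no filter 12093 genes passed between the ages in KO and 14914 in WT, against 8035 and 9549.

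Signs turned only for values that had not passed. Dnd1 at E13.5 (KO against WT) was 0.0039 under median-of-ratios scaling and under DESeq2 and 0.022 with the compared animals alone, against -0.0028, and the Nanos2 interaction was 0.073 under limma-voom. By the genotype field, Dazl, Pum2 and Celf1 at E13.5 were -0.033, -0.036 and -0.016 and the Nanos3 interaction was -0.24. Leaving out each animal gave, for KO against WT at E13.5, Dazl -0.017 to 0.077, Dnd1 -0.13 to 0.22, Nanos3 -0.25 to 0.41 and Pum2 -0.014 to 0.13. It gave -0.3 to 0.0058 for Dnd1 at E15.5 and -0.13 to 0.028 for Celf1 in the Inha animals. For the interaction it gave -0.39 to 0.0083 for Dnd1, -0.10 to 0.18 for Nanos1, -0.58 to 0.44 for Nanos2 and -0.11 to 0.68 for Nanos3. The other 211 of 221 values under the alternatives and 307 of 335 with an animal left out kept their direction and their side of the threshold. The causes were not tested.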
